A study of Mus musculus with 8 samples.

Results

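The genes described here are 7 CC chemokines, Ccl2, Ccl7, Ccl8, Ccl11, Ccl19, Ccl20 and Ccl21a, and 2 atypical chemokine receptors, Ackr3 and Ackr4. They were chosen by gene symbol from the deposited count table, where the 9 symbols occupy 11 of 53801 gene rows, because Ccl19 and Ccl21a are each listed a second time under another gene ID. RNA was sequenced from stromal cells of the mouse small intestine, sorted as negative for CD45 (the pan-leukocyte marker) and for CD31 (the endothelial marker Pecam1), and parted by a yellow fluorescent protein. The 4 YFP+ and 4 YFP- libraries all came from LTBRYFP animals, so the reporter genotype is shared and the groups differ in the fluorescence gate. No treatment, age or sex, and no account of which sequence drives YFP, is given in the sources used here. The labels conflict on this gate: the titles of 8 of 8 samples carry the reverse sign to their description and genotype fields, which match each other. Groups here follow the description, so every direction below would turn round if the titles were the correct labels.

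Chemokines are small secreted proteins that steer migrating leukocytes through G protein-coupled receptors, and the CC subfamily is named for a pair of adjacent cysteines near the start of the mature protein. CCL2 and CCL7 draw monocytes and other cells, and CCL11 (eotaxin) draws eosinophils through CCR3 and is prominent in the gut wall. CCL19 and CCL21 act on CCR7 in lymphoid tissue, and CCL20 acts on CCR6. Atypical receptors bind chemokines without classical G protein signalling and remove them: ACKR4 takes up CCL19, CCL21 and CCL25, and ACKR3 takes up CXCL12 and CXCL11.

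The coding stretch around the cysteine pair is shown for the 4 ligands with testable levels, because they are neighbouring relatives whose reads could be mixed, and for Ccl21a beside its copy Ccl21b, because there the letters limit what a count can mean. Each stretch is 60 bases of the GENCODE M21 transcript on GRCm38, 5′ to 3′ on the coding strand, with the adjacent cysteine codons in capitals.
Ccl2: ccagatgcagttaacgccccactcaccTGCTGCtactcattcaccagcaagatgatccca
Ccl7: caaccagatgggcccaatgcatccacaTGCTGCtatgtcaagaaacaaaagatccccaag
Ccl8: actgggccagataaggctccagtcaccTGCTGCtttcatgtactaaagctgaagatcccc
Ccl11: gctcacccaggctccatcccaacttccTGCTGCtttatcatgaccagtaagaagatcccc
Ccl21a: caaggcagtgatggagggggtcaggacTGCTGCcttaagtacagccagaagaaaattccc
Ccl21b: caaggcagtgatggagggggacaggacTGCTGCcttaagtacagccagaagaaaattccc
Among the first 4 stretches, aligned at the cysteine pair, the number of identical bases ran between 20 of 60 for Ccl7 and Ccl8 and 35 of 60 for Ccl2 with Ccl8 or with Ccl11. Ccl21a and Ccl21b were identical at 59 of 60 bases. Over whole transcripts, none of the 50-base words of Ccl2, Ccl7, Ccl8, Ccl11, Ccl20 or Ackr3 occurred in another annotated gene. By contrast, 71.6% of the words of Ccl21a were shared with Ccl21b and other copies, and 52.0% of those of Ccl19 with its pseudogenes and copies, so counts of Ccl21a and Ccl19 are uncertain.

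The libraries held 23404630 to 29829232 counts in YFP+ and 23272858 to 28688906 in YFP-, so that 3 counts corresponded to 0.0981 to 0.132 CPM, a gene's count relative to the TMM-scaled total of its library. Of 16354 genes that passed the filter on low counts, 1880 (11.5%) differed between YFP+ and YFP- at an adjusted p under 0.05 in a quasi-likelihood fit by edgeR that included the replicate number as a blocking term. The higher genes made up 3.65% and the lower genes 7.85% of those tested. Whether equal replicate numbers mark the same animals or the same sort is not stated in the labels. All p-values therefore rest on the variation among these 8 libraries, which may be technical.

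**Figure D1:**
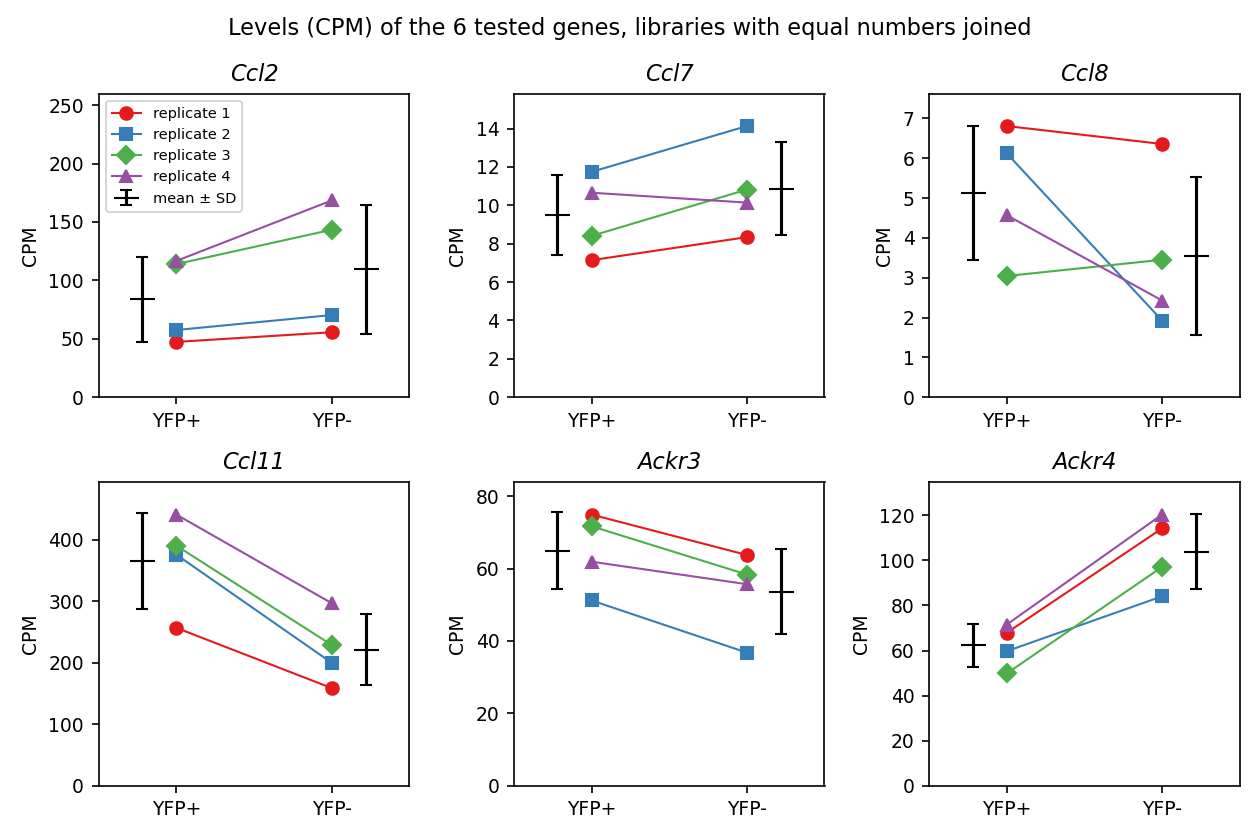
CPM (vertical axis, from 0) of the 6 genes tested in the 4 YFP+ libraries (left in each panel) and the 4 YFP- libraries (right), with lines joining equal replicate numbers and bars at the group mean ± SD. Ccl11 is higher and Ackr4 lower in the YFP+ library of all 4 pairs, and the YFP+ libraries of Ackr4 all lie under the YFP- libraries.

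Of the 9 genes, 6 passed the filter and 4 were called, against 11.5% of all genes tested: Ccl11 and Ackr3 rose and Ccl2 and Ackr4 fell in YFP+ cells. Ccl7 and Ccl8 did not pass the test. Ccl19 and Ccl21a had counts in too few libraries to be tested, and Ccl20 had none. A change in the RNA of a sorted population can come from fewer cells of a type or from less RNA per cell, and these bulk libraries cannot tell the 2 apart.

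Ccl11, the eosinophil chemoattractant, lies at chr11:82057823-82062955 (ENSMUSG00000020676, plus strand). It had 256.6, 375.6, 390.2 and 440.8 CPM in YFP+ replicates 1 to 4, against 158.7, 199.8, 228.8 and 296.7 CPM in YFP- replicates 1 to 4. The YFP+ library was the higher one in every pair, while the groups overlapped, because YFP+ replicate 1 lay under YFP- replicate 4. Ccl11 averaged 365.8 ± 78.0 CPM in YFP+, against 221.0 ± 58.1 CPM in YFP- (mean ± SD of 4 libraries). The log2 fold change was 0.74 (SE 0.06, 95% interval 0.62 to 0.85), or 1.67-fold, with an edgeR adjusted p of 1.04e-09. The 4 pair differences ran between 0.57 and 0.91 on the log2 scale. Without the replicate block the log2 fold change was 0.73 (SE 0.22) and the edgeR adjusted p was 0.14, so the call rests on taking equal numbers as pairs.

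Ccl2, a monocyte chemoattractant that stromal cells release early in inflammation, lies upstream of Ccl11 in the same gene cluster at chr11:82035571-82037453 (ENSMUSG00000035385, plus strand). Its level was 47.3, 57.5, 113.9 and 116.7 CPM in YFP+ replicates 1 to 4, against 55.6, 70.3, 143.3 and 168.4 CPM in YFP- replicates 1 to 4. Replicates 3 and 4 were high and replicates 1 and 2 low in both gates, so the groups overlapped widely, yet the YFP+ library was the lower one in all 4 pairs. Ccl2 averaged 83.8 ± 36.6 CPM in YFP+, against 109.4 ± 54.9 CPM in YFP- (SD, n = 4 each). The log2 fold change was -0.35 (SE 0.06, 95% interval -0.48 to -0.21), or 0.785-fold, with an edgeR adjusted p of 0.000408. Between pairs the level moved far more than between gates: the geometric mean of a pair ran between 51.3 and 140.2 CPM, a 2.73-fold range, and its SD over pairs was 0.72 on the log2 scale, against an SD of 0.13 for the pair differences. Without the replicate block the log2 fold change was -0.38 (SE 0.49) and the edgeR adjusted p was 0.792.

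Ccl2 is itself a gene of the early response to stress and cytokines. Other early response genes (such as Egr1, a transcription factor switched on within minutes of stimulation) fell in YFP+ in 12 of 12, against 7.85% of all genes tested. The median log2 fold change of the 12 was -0.40. Their summed level was 8716 to 9281 CPM in YFP+ libraries, against 11121 to 13374 CPM in YFP- libraries, with the highest sum in YFP- replicate 4. The largest pair difference of Ccl2, -0.53 on the log2 scale, was also that of pair 4. In YFP- replicates 1 to 3, however, the sums were 11121, 11148 and 11437 CPM, while Ccl2 was at 55.6, 70.3 and 143.3 CPM. In YFP+ replicates 1 to 3 the sums were 8933, 9211 and 8716 CPM, while Ccl2 was at 47.3, 57.5 and 113.9 CPM. With the replicate block left out, 7 of the 12 early response genes were called. The part of the early response genes in the Ccl2 result was not tested.

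Ccl7, a monocyte chemoattractant close to Ccl2 in the cluster (ENSMUSG00000035373, chr11:82045712-82047525, plus strand), had 7.14, 11.7, 8.41 and 10.7 CPM in YFP+ replicates 1 to 4, against 8.34, 14.1, 10.8 and 10.1 CPM in YFP- replicates 1 to 4. The groups overlapped, and 3 of 4 pairs were lower in YFP+. The log2 fold change of -0.20 had an SE of 0.15 and a 95% interval of -0.51 to 0.12, with an edgeR adjusted p of 0.496. That interval contains the point estimate of Ccl2.

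Ccl8, another ligand gene further along the cluster (ENSMUSG00000009185, chr11:82115185-82116799, plus strand), had 6.81, 6.12, 3.04 and 4.57 CPM in YFP+ replicates 1 to 4, against 6.36, 1.92, 3.45 and 2.43 CPM in YFP- replicates 1 to 4. The YFP+ library was the higher one in 3 of 4 pairs, and most of the difference came from pair 2, at 1.66 on the log2 scale. The fold change of 1.52 (log2 0.60, SE 0.29, 95% interval 0.01 to 1.20) did not pass the test, with an edgeR adjusted p of 0.207. Without replicate 2 the log2 fold change was 0.28, with an edgeR adjusted p of 0.667.

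**Figure D2:**
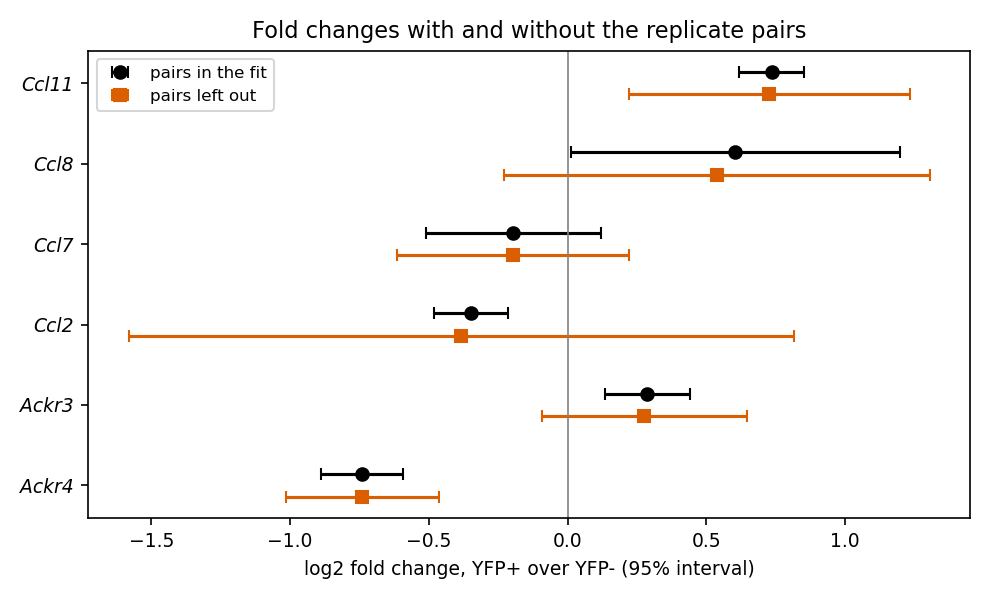
Log2 fold change of YFP+ over YFP- (horizontal axis) for the 6 genes tested, with 95% intervals from edgeR, with the replicate block and without it. With the block the intervals of Ccl11, Ackr3 and, by a margin of 0.01, Ccl8 lie above 0 and those of Ccl2 and Ackr4 below 0, and without it only the intervals of Ccl11 and Ackr4 leave 0 out.

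Because genes differ in length, levels were set side by side as CPM per kilobase of merged exons. Ccl11 came first, at 338.1 ± 72.1 in YFP+, against 204.2 ± 53.7 in YFP-, and Ccl2 second, at 73.7 ± 32.1 in YFP+, against 96.1 ± 48.3 in YFP- (CPM per kb, SD, n = 4 each). Ccl7 was at 11.8 ± 2.61 in YFP+, against 13.6 ± 3.02 in YFP-, and Ccl8 at 10.05 ± 3.29 in YFP+, against 6.93 ± 3.88 in YFP-. Ccl11 was above Ccl2 in all 8 libraries, whereas the spreads of Ccl7 and Ccl8 met in both gates.

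Within the summed level per kb of these 4 ligands, Ccl11 took 78.8, 81.8, 75.6 and 76.6% in YFP+ replicates 1 to 4, against 67.2, 68.9, 59.1 and 62.4% in YFP- replicates 1 to 4. Every YFP+ share was above every YFP- share. The share of Ccl2 averaged 16.5 ± 4.32% in YFP+, against 28.6 ± 6.80% in YFP- (SD, n = 4 each), that of Ccl7 2.78 ± 0.55% in YFP+ and 4.50 ± 1.59% in YFP-, and that of Ccl8 2.54 ± 1.42% in YFP+ and 2.52 ± 2.15% in YFP-. The level of Ccl11 per kb was 3.60 to 6.87 times that of Ccl2 in YFP+ libraries and 1.68 to 3.00 times in YFP- libraries.

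**Figure D3:**
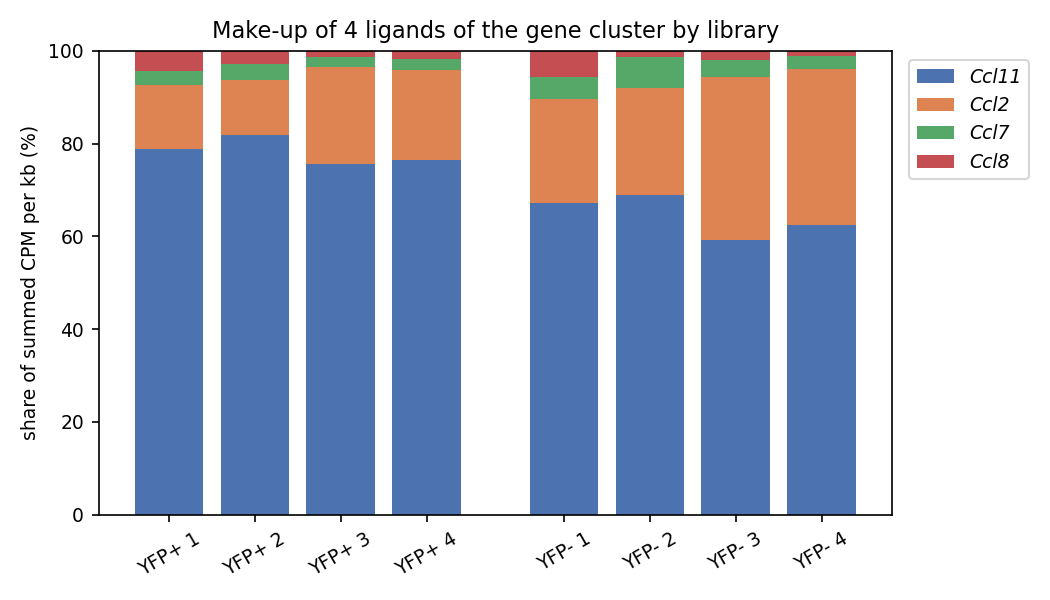
Share of Ccl11, Ccl2, Ccl7 and Ccl8 in their summed CPM per kb (vertical axis, percent) in each of the 4 YFP+ libraries and, to their right, the 4 YFP- libraries. The share of Ccl11 is 75.6 to 81.8% in YFP+ and 59.1 to 68.9% in YFP-.

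The contrast between the neighbours was also taken within pairs. The pair difference of Ccl11 exceeded that of Ccl2 by 0.92, 1.20, 1.10 and 1.10 on the log2 scale in pairs 1 to 4, a mean of 1.08 ± 0.11 (SD, n = 4 pairs). An exact two-sided sign-flip permutation test gave p = 0.125, the smallest that 4 pairs allow (0.167 after Benjamini-Hochberg adjustment over 4 such comparisons), so this design cannot reach 0.05. For Ccl11 against Ccl7 the mean was 0.93 ± 0.31, with the same exact p of 0.125 (0.167 adjusted). Ccl2 and Ccl7 differed by -0.15 ± 0.30, with pairs 1 to 3 at -0.01, -0.02 and 0.03 and pair 4 at -0.60, and an exact p of 0.625 (0.625 adjusted).

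Ccl19 and Ccl21a, the ligands of CCR7 that guide T cells and dendritic cells, had counts in some libraries and none in others. Too few libraries held enough counts for a test. Ccl19 (ENSMUSG00000071005, chr4:42754525-42756577, minus strand) had 0 counts in all 4 YFP+ libraries, against 10, 0, 0 and 3 counts in YFP- replicates 1 to 4. Ccl21a (ENSMUSG00000094686, chr4:42772860-42773993, minus strand) had 73, 0, 0 and 2 counts in YFP+ replicates 1 to 4, against 70, 0, 1 and 39 counts in YFP- replicates 1 to 4. The counts of Ccl21a lay almost wholly in pair 1 of both gates and in YFP- replicate 4. The second rows of both symbols had 0 counts in every library.

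CCL21 is also made by lymphatic endothelium, whose cells carry CD31 and which the CD31- gate was set to remove. Over libraries 1 to 4, 5 lymphatic markers summed to 14.8, 13.8, 3.63 and 7.13 CPM in YFP+, against 18.8, 9.58, 18.5 and 18.9 CPM in YFP-, and none of the 5 was at 0 in any library. YFP+ replicates 1 and 2, with 73 and 0 counts of Ccl21a, had similar sums. However, single markers went different ways between these libraries. Reln, the most abundant of the 5 markers by CPM, was at 4.20 CPM in YFP+ replicate 1 and 8.58 CPM in YFP+ replicate 2. In the same order Lyve1 was at 1.71 and 2.51 CPM and Prox1 at 2.42 and 2.38 CPM. Mmrn1 was at 4.76 and 0.0821 CPM, and Flt4 at 1.71 and 0.205 CPM. The sum therefore does not stand for each single marker. The part of such cells in the Ccl21a counts was not tested. In the authors' deposited table Ccl21a had a log2 fold change of -1.85 with an adjusted p of 0.277.

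Ccl20, the CCR6 ligand best known from the epithelium over lymphoid follicles (ENSMUSG00000026166, chr1:83116766-83119167, plus strand), had 0 counts in 8 of 8 libraries. At these depths that allows up to 0.123 CPM in a YFP+ library and up to 0.132 CPM in a YFP- library. It was thus not detectable at this depth.

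Ackr4, the scavenger of CCR7 ligands, lies at chr9:104084157-104126933 (ENSMUSG00000079355, minus strand). It had 67.9, 59.7, 49.8 and 71.5 CPM in YFP+ replicates 1 to 4, against 114.2, 84.1, 97.1 and 120.4 CPM in YFP- replicates 1 to 4. Every YFP+ library was below every YFP- library, which was true of 5.86% of all genes tested. Groups that do not overlap in either direction were found for 9.64% of all genes tested and, among the 6 genes here, for Ackr4 alone. Ackr4 averaged 62.2 ± 9.64 CPM in YFP+, against 103.9 ± 16.5 CPM in YFP- (mean ± SD of 4 libraries). The log2 fold change was -0.74 (SE 0.07, 95% interval -0.89 to -0.59), or 0.599-fold, with an edgeR adjusted p of 3.95e-08. It was the 1 gene of the 6 still called without the replicate block, at a log2 fold change of -0.74 (SE 0.13) and an edgeR adjusted p of 0.00381.

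Part of the Ackr4 model, 479 bases or 8.9% of its exons, lies opposite exons of Acad11, a mitochondrial dehydrogenase gene on the other strand. The library kit keeps strand, while the strand setting of the counting is not given in the sources used here, so reads in that stretch may belong to either gene. In mouse gut, Ackr4 is also known as a gene of CD81+ fibroblasts beneath the crypts. All 5 genes of a list for those cells fell in YFP+, against 7.85% of all genes tested. Of the 5 genes, 4 were still called without the replicate block. The 5 genes had a median log2 fold change of -0.67, with the BMP antagonist Grem1 at -0.62. Their summed level was 752 to 853 CPM in YFP+ libraries and 1033 to 1191 CPM in YFP- libraries, and their part in the Ackr4 result was not tested.

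Ackr3, the scavenger of CXCL12, lies at chr1:90203980-90216751 (ENSMUSG00000044337, plus strand). It had 74.9, 51.2, 71.7 and 61.9 CPM in YFP+ replicates 1 to 4, against 63.7, 36.8, 58.3 and 55.7 CPM in YFP- replicates 1 to 4. The groups overlapped, with YFP+ the higher library in all 4 pairs and replicate 2 the lowest in both gates. Ackr3 averaged 64.9 ± 10.7 CPM in YFP+, against 53.6 ± 11.7 CPM in YFP- (mean ± SD of 4 libraries). The log2 fold change was 0.29 (SE 0.07, 95% interval 0.14 to 0.44), or 1.22-fold, with an edgeR adjusted p of 0.00982. The call was lost without replicate 3, at a log2 fold change of 0.28 and an edgeR adjusted p of 0.0623, and without the replicate block, at 0.28 and 0.496. Ackr3, Ackr4, Ccl2 and Ccl11 were the 4 of 6 genes that moved the same way in all 4 pairs, against 30.2% of all genes tested.

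The atypical receptors thus moved in opposite directions, and the pair difference of Ackr3 exceeded that of Ackr4 by 0.98, 0.97, 1.26 and 0.90 on the log2 scale in pairs 1 to 4. The mean was 1.03 ± 0.16 (SD, n = 4 pairs), again with the smallest exact two-sided p that 4 pairs allow, 0.125 (0.167 adjusted). Per kb of merged exons, Ackr3 was at 19.4 ± 3.20 and Ackr4 at 11.6 ± 1.79 in YFP+ cells, while in YFP- cells Ackr3 was at 16.02 ± 3.505 and Ackr4 at 19.3 ± 3.07 (CPM per kb, SD, n = 4 each). The order in YFP+ was Ccl11, Ccl2, Ackr3, Ccl7, Ackr4 and Ccl8, where the spreads of the last 3 met, and in YFP- it was Ccl11, Ccl2, Ackr4, Ackr3, Ccl7 and Ccl8, where the spreads of neighbours met in each case after Ccl2. With the longest transcript as the length, Ackr4 was at 23.1 ± 3.57 and Ackr3 at 21.2 ± 3.49 in YFP+, where the spreads met. In YFP- Ackr4 was then at 38.5 ± 6.12 and Ackr3 at 17.5 ± 3.83. The mean of Ackr4 thus stood above that of Ackr3 in both gates, so the order of these receptors depends on the gene model.

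Among 6 genes around ACKR3 (ligands, the signalling receptor CXCR4 and arrestins), 5 were tested, 2 rose and 1 fell. Of all genes tested, 3.65% rose and 7.85% fell. The median log2 fold change of the 5 was -0.21, beside 0.01 over all genes tested. Cxcl12, the chemokine that ACKR3 removes, had 591.3, 716.8, 689.4 and 576.4 CPM in YFP+ replicates 1 to 4, against 456.4, 551.9, 554.5 and 475.2 CPM in YFP- replicates 1 to 4. All YFP+ libraries were above all YFP- libraries, and groups that do not overlap in either direction were found for 9.64% of all genes tested. The log2 fold change of Cxcl12 was 0.34 (SE 0.05), with an edgeR adjusted p of 1.35e-05. Arrb1, a beta-arrestin that carries receptors into the cell, rose to 347.7 ± 35.8 CPM in YFP+, against 283.5 ± 25.9 CPM in YFP- (log2 0.29, edgeR adjusted p 0.000182). Adm, the peptide adrenomedullin that ACKR3 also binds, fell to 11.2 ± 1.44 CPM in YFP+, against 17.5 ± 5.13 CPM in YFP- (log2 -0.61, edgeR adjusted p 0.00385). Without replicate 4 the edgeR adjusted p of Adm was 0.0673, and without the block none of these 3 genes was called.

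Little else of the CC system was expressed. Of 16 other CC ligands 4 were tested, with a median log2 fold change of -0.12, and 1 fell, against 7.85% of all genes tested. The most abundant was Ccl25, the CCR9 ligand of the small bowel and a cargo of ACKR4, at 13.3 ± 0.604 CPM in YFP+, against 14.8 ± 2.55 CPM in YFP- (edgeR adjusted p 0.595). The one that fell was Ccl28, a mucosal ligand of CCR10 made by epithelium. It had 3, 1, 13 and 0 counts in YFP+ replicates 1 to 4 and 11, 14, 28 and 20 counts in YFP- replicates 1 to 4. At a log2 fold change of -2.76 (SE 0.89) its edgeR adjusted p was 0.044, and leaving out any of the 4 pairs raised it to between 0.0934 and 0.172. Epithelial markers moved with it: 4 of 8 fell, against 7.85% of all genes tested. The sum of the 8 markers was 18.9 to 25.6 CPM in YFP+ libraries, against 33.4 to 69.9 CPM in YFP- libraries. Their part in the Ccl28 result was not tested.

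Of 10 CC receptors 3 were tested and 0 were called by edgeR, 0 at an unadjusted p under 0.05, and 0 by DESeq2 or limma-voom, with a median log2 fold change of -0.17. The most abundant, Ccr10, was at 0.591 ± 0.293 CPM in YFP+, against 0.671 ± 0.331 CPM in YFP- (SD, n = 4 each). Of 3 other atypical receptors edgeR tested 2 and called 0, also 0 at an unadjusted p under 0.05, with a median log2 fold change of -0.39. The third, Ackr2, failed the filter. It had 9, 2, 0 and 1 counts in YFP+ replicates 1 to 4 and 7, 27, 12 and 20 counts in YFP- replicates 1 to 4. Limma-voom called 0, while DESeq2, which used its own filter on low counts, called 1 of the 3. The most abundant of them was Ccrl2, which binds chemerin, at 15.6 ± 1.47 CPM in YFP+, against 14.2 ± 2.17 CPM in YFP- (edgeR adjusted p 0.578).

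**Figure D4:**
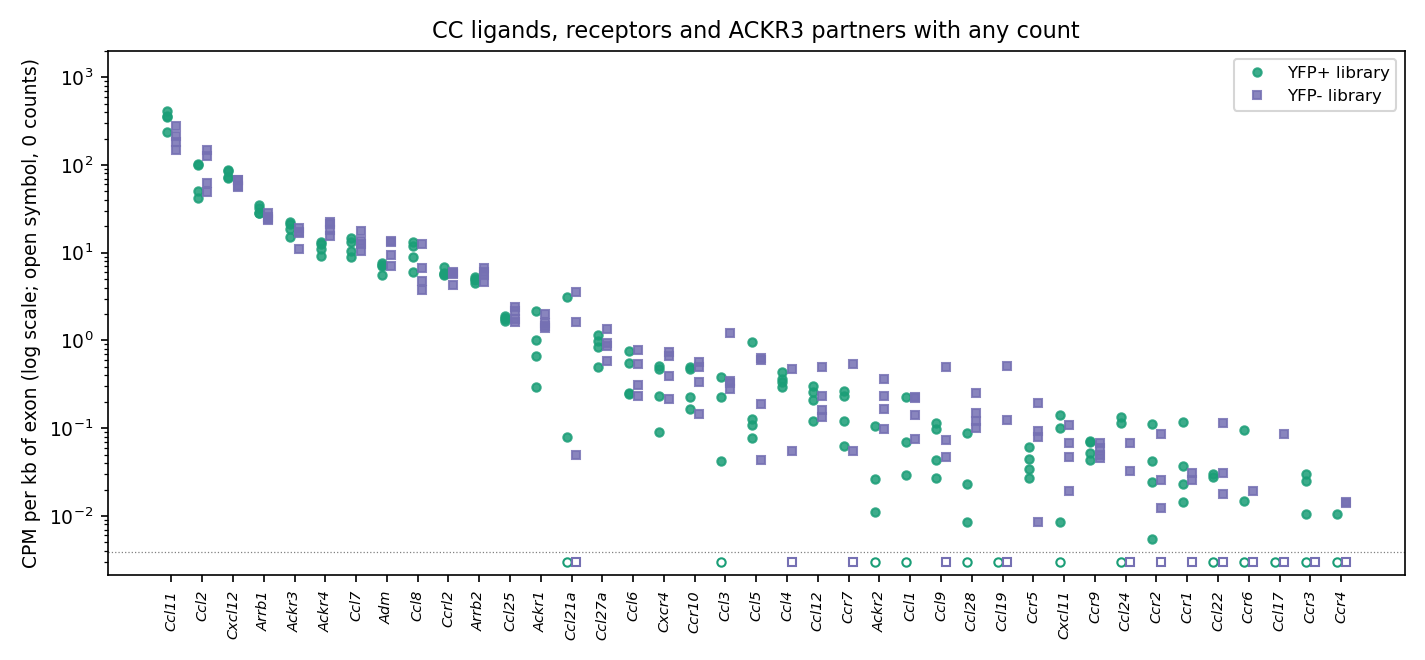
CPM per kb of merged exons (vertical axis, log scale) in each YFP+ library (circles, left) and YFP- library (squares, right) for the 9 genes and the listed CC ligands, receptors and ACKR3 partners with any count, in order of their mean level, with open symbols for libraries with 0 counts. Ccl11, Ccl2 and Cxcl12 stand above the other genes shown.

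The genes whose profile over the 8 libraries was most like that of each of 5 members were found by the root mean square (RMS) difference in centred log2 CPM, as a description. For Ackr4 they were Hspb8, a small heat-shock protein (RMS 0.09), Ntn4, a netrin (0.10), and Serpine2, a protease inhibitor (0.11), against a median of 0.46 over all genes compared. For Ccl11 they were Lacc1 (0.20), Zmynd15 (0.20) and Lcp2, an adaptor of immune cell signalling (0.21), against a median of 0.50. These 6 genes were called in the direction of their member, which the way of choosing favours, because the difference between gates enters the RMS. Their log2 fold changes were -0.70 for Hspb8, -0.92 for Ntn4, -0.65 for Serpine2, 0.73 for Lacc1, 0.61 for Zmynd15 and 0.67 for Lcp2. For Ccl2 they were Vwc2 (0.20), Eif2s3y (0.28) and Rpl34 (0.32), and none of these was called: their likeness to Ccl2 lies in the differences between pairs. For Ackr3 they were Mrpl52 (0.09), Plod1 (0.10) and Zfp189 (0.11), of which Plod1 alone was called (log2 0.22, edgeR adjusted p 0.0137). For Ccl7 they were Chsy3 (0.08), Rnf217 (0.09) and Mllt3 (0.10). Of these Rnf217 alone was called (log2 -0.225, edgeR adjusted p 0.0371), although Ccl7 was not.

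The sorted populations differed in markers of other cells, given here once. Of all genes tested, 3.65% rose and 7.85% fell. Fibroblast markers led in both gates, at a summed 33793 to 37596 CPM in YFP+ libraries and 39086 to 46161 CPM in YFP- libraries, and 5 of 6 fell. Glial markers fell in 6 of 6, with sums of 6.40 to 9.12 CPM in YFP+ and 100.3 to 164.1 CPM in YFP-, and blood endothelial markers in 3 of 6, with 43.0 to 55.6 CPM in YFP+ and 61.9 to 93.9 CPM in YFP-. Tek was the most abundant blood endothelial marker, at a mean of 27.3 CPM in YFP+ and 46.4 CPM in YFP-. Vwf, which was not called, had the higher mean in YFP+, at 9.22 CPM against 7.04 CPM in YFP-. Smooth muscle markers rose in 5 of 5, with 320.7 to 810.3 CPM in YFP+ and 166.9 to 436.4 CPM in YFP-, and of 6 mural markers 1 rose and 1 fell. Of 6 subepithelial fibroblast markers 2 rose and 1 fell, with Foxl1 at 0 counts throughout, and of 3 lymphoid stroma markers 1 rose. Haematopoietic markers summed to 26.0 to 85.4 CPM in YFP+ and 29.9 to 81.0 CPM in YFP-, with 0 of 7 called by edgeR, DESeq2 or limma-voom and 0 at an unadjusted p under 0.05. Of 5 lymphatic markers edgeR called 0, with 1 at an unadjusted p under 0.05, and DESeq2 called 1, and the 1 mesothelial marker tested was not called. Several of these calls rest on the replicate block. With the block left out, 0 of 5 smooth muscle, 2 of 6 fibroblast and 1 of 6 blood endothelial markers were called, and 6 of 6 glial markers. The part of these cells in the chemokine results was not tested.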

How the data were processed

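Libraries were made from sorted cells with a stranded total RNA kit for low input, per the labels' protocols. The submitters' processing notes name cutadapt 3.4, STAR 2.7.3a, featureCounts 2.0.1 and DESeq2 with the GRCm38 (mm10) build, and the sources used here do not give the strand setting. The deposited table holds raw whole-number counts per gene, the authors' normalised values (8 columns, not used) and the authors' log2 fold changes and adjusted p-values, which are quoted only where named.

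From the counts, edgeR 4.0.16 (R 4.3.3; TMM scaling, filterByExpr, robust quasi-likelihood F test) was fitted to all genes with the replicate number as a block, and p-values were adjusted by the Benjamini-Hochberg method over the 16354 genes tested. SE is the log2 fold change over the square root of F. CPM are counts relative to the TMM-scaled totals, with 0.5 added before logs of single libraries. Gene models are those of GENCODE M21. Alternatives were DESeq2 1.42.0, limma 3.58.1 with voom, other scalings and filters, no block, and each pair left out. In 1 simulated data set with planted changes, 14.2% of edgeR's calls were false, above the 0.05 threshold. Of 50 genes planted at each log2 fold change, 70% were recovered at -2, 72% at -1, 78% at 1 and 94% at 2. The adjusted p-values of this fit may thus be too small, and calls near the threshold are the least secure.

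Equal replicate numbers were taken as pairs: over 5188 well expressed genes, deviations from the group means correlated at 0.39 to 0.63 between libraries of the same number and at -0.42 to 0.05 otherwise, and the authors' deposited log2 fold changes match a DESeq2 fit with the number as a term. All libraries differed beyond sampling noise. The named genes were the 9 members and the called and the most abundant genes of 4 pathway lists. To these came the most abundant gene of a marker list. The 3 genes most like each of the 5 members with a mean of at least 10 CPM were also named. Foxl1 and Ackr2 are named besides, after their values were seen, Foxl1 because it was at 0 and Ackr2 because edgeR did not test it. Lyve1, Prox1, Flt4, Mmrn1 and Vwf are also named after their values were seen, because markers of their lists went different ways. The members, the 4 pathway lists and the 13 lists of other cells and quality were chosen with earlier results of these data known. Intervals and floors cover counting error or the spread of these libraries only.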

Additional observations from a re-analysis of the deposited data

Results flagged for a closer look

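Of 119 sets of 4 libraries of 1 gate, 8 had a library far from the other 3, where chance gives about 6. Ccl21a was high in YFP+ replicate 1, at 2.72 CPM with the next library at 0.0692 CPM. Of single marker genes, Egr1 was high in YFP- replicate 4, at 2999 CPM with the next at 2584 CPM, and Pdpn, a stromal surface protein, was low in YFP+ replicate 2, at 212.6 CPM with the next at 279 CPM. YFP- replicate 4 was also high in the summed early response genes, at 13374 CPM with the next at 11437 CPM. The summed lymphoid stroma markers were low in YFP+ replicate 2, at 315.9 CPM with the next at 388 CPM. YFP- replicate 2 was low in the summed other atypical receptors, at 14.1 CPM with the next at 18.0 CPM, and in the summed lymphatic markers, at 9.58 CPM with the next at 18.5 CPM. It was high in the summed subepithelial fibroblast markers, at 1033 CPM with the next at 627 CPM.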

How the results depend on the processing

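No result reversed. Without the replicate block 150 genes rose and 547 fell, against 597 and 1283 with it, and Ccl2 (log2 fold change -0.38, edgeR adjusted p 0.792), Ccl11 (0.73, 0.14) and Ackr3 (0.28, 0.496) were not called, nor were other CC ligands (0 called) or ACKR3 partners (0 called); Ackr4 was. Of the 4 calls among the members, 3 were thus lost. With single pairs left out, 331 to 500 genes rose and 851 to 1126 fell, both lowest without replicate 3. Over the same fits the log2 fold change ran between -0.38 and -0.28 for Ccl2, -0.28 and -0.14 for Ccl7, 0.28 and 0.86 for Ccl8, 0.69 and 0.80 for Ccl11, 0.24 and 0.34 for Ackr3 (edgeR adjusted p 0.0131 to 0.0623) and -0.81 and -0.67 for Ackr4. The 1 call among other CC ligands, Ccl28, became 0 with no filter, with 1 CPM required in 4 libraries and without any pair (0 to 0), the other atypical receptors had 0 to 1 calls without single pairs and 1 with DESeq2, and ACKR3 partners 2 to 3. Ccl19 and Ccl21a could be fitted only where the filter let them through. Scaling moved the median of all genes by under 0.01 on the log2 scale. The causes were not tested. Low counts limit Ccl19 and Ccl20, counts confined to few libraries limit Ccl21a, and 4 libraries a gate limit the exact tests.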
